A study of Homo sapiens with 4 samples.

Results

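The SOX factor genes encode transcription factors with an HMG box, a DNA-binding domain shared with the testis-determining factor SRY. Of these genes 10 were examined: SOX2, SOX4, SOX5, SOX6, SOX8, SOX9, SOX10, SOX11, SOX12 and SOX13. They are 10 of 19970 protein-coding genes on chromosomes 1 to 22 and X, and were chosen by name, with earlier results of these data known. For each, the peaks of the histone mark H3K27ac, an acetylation found at active promoters and enhancers, were taken within 1 kb of the canonical transcription start site and within 200 kb of the gene body on hg38. The mark had been mapped by ChIP-seq in MDA-MB-231 and Hs578T, established human triple-negative breast cancer lines, with 2 libraries per line, described in the methods as biological replicates. All 4 libraries came from serum-starved cells that had received 10 ng/ml of the cytokine TWEAK, the ligand of the receptor Fn14, for 48 h. Per the labels the cytokine was then washed out for 72 h, whereas the study's own text names a longer time without TWEAK, so the interval is uncertain. Neither untreated cells nor cells kept in TWEAK were analysed here, and no value below is an effect of TWEAK or of its removal. Each line is a single cell line, and the libraries of a line measure the spread between preparations and not between tumours.

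SOX proteins bend DNA at short motifs related to ACAAAG and ACAATG, and they act with partner factors to set and hold cell fates. They are sorted into groups by their HMG box. SOX2, of group B1, maintains pluripotent and neural progenitor cells. SOX4, SOX11 and SOX12 form group C, whose members act in neural and mesenchymal progenitors, and SOX4 is known for its part in the epithelial-mesenchymal transition of breast cells. SOX5, SOX6 and SOX13 form group D and lack a transactivation domain of their own. SOX5 and SOX6 work beside SOX9 in cartilage, while SOX13 is known from T cell development. SOX8, SOX9 and SOX10 form group E. SOX9 directs chondrocyte and testis development and is also found in mammary progenitors, SOX10 directs neural crest, melanocytes and glia, and SOX8 shares tasks with both. Several of these genes lie in gene-poor regions and are known to be governed by enhancers far from their start sites.

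DNA from the strongest distal region near each marked SOX gene is shown first. In the 3 lists with many peaks, the strongest distal peak was higher in fold enrichment than the peak at the start site of each marked SOX gene. The same held for 60.6, 65.3 and 67.9% of all marked protein-coding genes in MDA-MB-231 replicate 2, Hs578T replicate 1 and Hs578T replicate 2. Distal means over 2.5 kb from every canonical start site. For each of the 5 marked genes, the middle 300 bases of the stretch covered in all 3 lists are given in the hg38 plus strand. The lists do not give the position of the maximum within a peak, so these bases need not be the most acetylated. They lie at chr3:181623333-181623632 for SOX2, chr6:21587991-21588290 for SOX4, chr20:371497-371796 for SOX12, chr1:204103873-204104172 for SOX13 and chr17:71922114-71922413 for SOX9. The stretch near SOX2 lies in an intron of the long noncoding RNA gene SOX2-OT. That near SOX4 lies in an intron of the noncoding gene ENSG00000283480. That near SOX12 lies within the annotated span of TRIB3 but outside its canonical exons. That near SOX13 lies in an intron of SOX13 itself and that near SOX9 between genes. Capitals mark matches, on either strand, to the AP-1 motif TGANTCA or to the SOX motifs ACAAAG and ACAATG. A match describes the letters only.
SOX2 distal: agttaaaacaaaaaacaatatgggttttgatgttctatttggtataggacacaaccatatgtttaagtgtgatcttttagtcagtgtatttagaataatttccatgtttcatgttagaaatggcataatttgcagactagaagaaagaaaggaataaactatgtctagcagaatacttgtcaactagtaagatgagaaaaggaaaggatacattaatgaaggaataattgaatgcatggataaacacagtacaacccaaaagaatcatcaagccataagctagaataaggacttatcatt
SOX4 distal: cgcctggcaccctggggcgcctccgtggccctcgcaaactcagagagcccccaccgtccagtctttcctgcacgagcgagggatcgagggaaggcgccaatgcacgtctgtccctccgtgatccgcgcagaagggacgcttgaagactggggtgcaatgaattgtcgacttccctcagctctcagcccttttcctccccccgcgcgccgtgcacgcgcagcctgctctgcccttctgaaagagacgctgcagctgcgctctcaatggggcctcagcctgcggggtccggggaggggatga
SOX12 distal: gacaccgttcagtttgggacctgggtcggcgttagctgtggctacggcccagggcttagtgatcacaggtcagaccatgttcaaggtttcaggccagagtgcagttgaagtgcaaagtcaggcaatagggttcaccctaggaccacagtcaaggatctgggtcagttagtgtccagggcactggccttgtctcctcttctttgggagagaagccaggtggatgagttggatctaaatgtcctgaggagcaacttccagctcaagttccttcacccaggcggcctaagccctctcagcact
SOX13 distal: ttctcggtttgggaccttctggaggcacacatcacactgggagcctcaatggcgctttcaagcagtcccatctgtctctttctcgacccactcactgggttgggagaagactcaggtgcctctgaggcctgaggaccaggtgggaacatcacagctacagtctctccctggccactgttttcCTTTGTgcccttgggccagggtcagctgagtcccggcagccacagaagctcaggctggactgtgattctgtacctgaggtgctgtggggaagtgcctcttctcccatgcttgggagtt
SOX9 distal: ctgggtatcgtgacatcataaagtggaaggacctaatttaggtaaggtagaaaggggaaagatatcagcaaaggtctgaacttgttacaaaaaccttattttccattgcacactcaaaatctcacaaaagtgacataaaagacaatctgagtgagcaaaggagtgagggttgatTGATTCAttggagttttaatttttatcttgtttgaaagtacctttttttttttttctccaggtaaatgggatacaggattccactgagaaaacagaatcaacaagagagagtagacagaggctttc
The SOX9 stretch held 1 AP-1 match and the SOX13 stretch 1 SOX match, and the other 3 held neither. Base composition differed widely. The SOX4 stretch was 66% G or C with 25 CG dinucleotides, whereas the SOX2 stretch was 30.7% G or C with 0 and the SOX9 stretch 36.3% with 1.

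The 250 bases before the start site are given for SOX12, which had a promoter peak in all 3 large lists, for SOX2, which had one in 2 of them, and for SOX6, which had none. They come from the RefSeq promoter table on GRCh38.p14, in which 6 of the 10 genes were matched by symbol, 5 of them at the canonical start site used here. They lie at chr20:325302-325551 on the plus strand for SOX12, chr3:181711675-181711924 on the plus strand for SOX2 and chr11:16356547-16356796 on the minus strand for SOX6, and read 5′ to 3′ in the direction of transcription. Capitals mark CG dinucleotides.
SOX12 promoter: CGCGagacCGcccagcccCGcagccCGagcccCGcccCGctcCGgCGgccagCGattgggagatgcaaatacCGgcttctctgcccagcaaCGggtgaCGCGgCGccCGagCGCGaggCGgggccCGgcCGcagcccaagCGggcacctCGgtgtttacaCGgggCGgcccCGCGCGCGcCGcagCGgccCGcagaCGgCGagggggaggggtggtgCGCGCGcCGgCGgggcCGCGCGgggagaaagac
SOX2 promoter: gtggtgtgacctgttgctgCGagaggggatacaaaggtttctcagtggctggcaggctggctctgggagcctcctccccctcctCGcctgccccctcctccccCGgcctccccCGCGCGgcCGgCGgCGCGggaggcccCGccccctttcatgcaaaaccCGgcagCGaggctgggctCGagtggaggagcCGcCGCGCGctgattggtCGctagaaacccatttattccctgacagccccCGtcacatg
SOX6 promoter: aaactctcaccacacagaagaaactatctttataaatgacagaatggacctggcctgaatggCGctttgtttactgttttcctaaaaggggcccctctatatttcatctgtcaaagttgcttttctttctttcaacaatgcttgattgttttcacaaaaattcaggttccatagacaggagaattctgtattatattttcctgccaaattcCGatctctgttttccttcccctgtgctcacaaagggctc
SOX12 held 42 CG dinucleotides in this window, and 1.38% of the 35116 promoters in the table held as many. SOX2 held 20, a number reached by 32.4% of promoters, and SOX6 held 2, reached by 85.3%. SOX4 and SOX13, both marked in all 3 large lists, held 8 each, reached by 56.3%, against a median of 11 over the table. In these 250 bases SOX4 and SOX13 thus held fewer CG dinucleotides than SOX2, which was called less evenly. The SOX4 peak covered none of them, as it began 98, 145 and 317 bp after the start in the large lists. The SOX13 peak covered few, as it began 71, 41 and 15 bp before the start. These counts therefore do not describe the CG content of the marked bases of SOX4 and SOX13.

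The peak lists differed in size, which bears on every value below. The list of MDA-MB-231 replicate 1 held 209 peaks, and those of MDA-MB-231 replicate 2, Hs578T replicate 1 and Hs578T replicate 2, called the large lists here, held 43353, 46330 and 44920. Read numbers were not used here, so depth is unknown. Because the lists labelled MDA-MB-231 differed so much in size, each value is given per list, in that order, and a line is described by its mean only beside its SD. Whether the library of replicate 1 failed or a label is wrong cannot be told apart from the peak lists, and every mean or comparison by line depends on the labels as given. Fold enrichment is a ratio to each library's own background, so its size was not compared between lists and its rank within a list is given instead. Promoters of mesenchymal markers carried peaks in 4, 5 and 4 of 5 genes in the large lists (VIM, CD44, AXL and ZEB1 in each). Of 6 epithelial and luminal markers 1, 1 and 0 were marked, EPCAM in both, and the estrogen receptor gene ESR1 was not. Of the neural crest and melanocyte markers MITF and PMEL were marked and SOX10 was not, and neural and immune markers were unmarked. MDA-MB-231 replicate 1 had 0 marked markers of any kind.

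At the start sites, 4 of the 10 SOX genes carried a peak within 1 kb in all 3 large lists, namely SOX4, SOX12, SOX13 and SOX9. SOX2 carried a weak one in MDA-MB-231 replicate 2 and Hs578T replicate 1 only, and SOX11, SOX5, SOX6, SOX8 and SOX10 carried none. Per list, the number of marked genes was 0 in MDA-MB-231 replicate 1, where 0.0601% of protein-coding genes were marked. It was 5 in MDA-MB-231 replicate 2, with 58.1% of all genes, 5 in Hs578T replicate 1, with 58.2%, and 4 in Hs578T replicate 2, with 56.4%. Of all genes 55.6% were marked in all 3 large lists and 3.69% in 1 or 2 of them. The share of marked SOX genes was thus below that of all protein-coding genes in each list, by the most in Hs578T replicate 2, and with 10 genes nothing particular to the SOX genes can be read from this.

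By line, 2.5 ± 3.54 (SD, n = 2) of the genes were marked in MDA-MB-231 and 4.5 ± 0.707 in Hs578T, a difference smaller than the SD of MDA-MB-231. Without MDA-MB-231 replicate 1 the order of the lines turned, with 5 marked genes in MDA-MB-231 against 4.5 in Hs578T. The number of genes marked in both Hs578T lists and neither MDA-MB-231 list was 0, and it was 4 without MDA-MB-231 replicate 2. The reverse number was also 0. Both the 4 and this 0 were fixed by the list of MDA-MB-231 replicate 1, in which no SOX gene was marked. That list marked 12 of the 19970 protein-coding genes. The same numbers over all protein-coding genes were not computed. A test was not made, because 2 libraries per line allow only 3 splits, so that the smallest p-value of an exact two-sided permutation test would be 0.333. The plot of promoter peaks by gene shows the split between the marked genes and the rest.

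**Figure D1:**
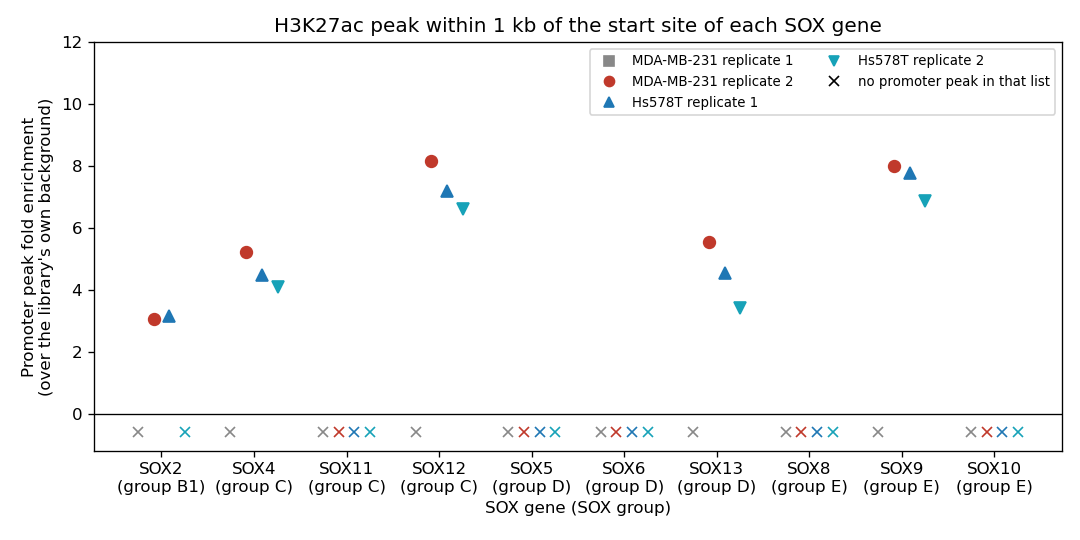
Fold enrichment of the H3K27ac peak within 1 kb of the canonical start site (vertical axis, ratio to the library's own background) for each SOX gene, ordered by SOX group. Coloured symbols are single lists and crosses below the line stand for a list without a promoter peak; SOX12 and SOX9 hold the highest values, between 6.60 and 8.17, and MDA-MB-231 replicate 1 has crosses only.

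SOX2, the pluripotency factor of group B1 (chr3:181711925-181714436, plus strand, a gene without introns of 2.51 kb), had a weak promoter peak in part of the lists. Its promoter peak was absent in MDA-MB-231 replicate 1, 898 bp wide with 3.07-fold enrichment in MDA-MB-231 replicate 2, 952 bp wide with 3.15-fold enrichment in Hs578T replicate 1, and absent in Hs578T replicate 2. The lists of Hs578T were therefore divided, while the absence in MDA-MB-231 replicate 1 was shared by each of the 10 genes. Where present, the peak ranked at percentiles 1.50 and 4.49 in fold enrichment among marked protein-coding genes, and at percentiles 13.8 and 14.3 in width. Its −log10 q-values were 2.32 and 2.92. It reached from 431 bp before to 466 bp after the start site in MDA-MB-231 replicate 2, a span that also covers the start of the noncoding gene ENSG00000289435, 187 bp away. In Hs578T replicate 2 the nearest peak lay 15756 bp from the start site. The start of SOX2-OT, the long noncoding RNA gene that spans SOX2, was marked in all 3 large lists, with 4.77-, 3.97- and 3.81-fold enrichment, but that start site lies close to the start of DNAJC19, which the same peak covered in MDA-MB-231 replicate 2 and Hs578T replicate 1.

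In group C, SOX4 and SOX12 were marked in every large list, and SOX11, a neuronal and embryonic factor, in none. The SOX4 peak (chr6, in the single-exon gene at chr6:21593751-21598619, plus strand) was 3594, 3898 and 3607 bp wide with 5.21-, 4.48- and 4.10-fold enrichment. It was broad but low within each list. Its width ranked at percentiles 84.9, 85.1 and 84.8 of marked genes and its fold enrichment at 17.6, 15.9 and 16.1. In none of the lists did the peak cover the start site itself, since it began 98, 145 and 317 bp downstream and ran along the gene to 3691, 4042 and 3923 bp. For SOX12 (chr20:325552-330224, plus strand), the member of the group known for the weakest activation of targets, the peak was 4287, 4205 and 4063 bp wide with 8.17-, 7.21- and 6.60-fold enrichment. It spanned the start site on both sides, from 1909 bp before to 2377 bp after it in MDA-MB-231 replicate 2, and ranked at percentiles 42.6, 42.1 and 47.3 in fold enrichment. SOX12 had the widest promoter peak of the 10 genes in each large list. At SOX11 (chr2:5692384-5701385, plus strand) the nearest peaks lay 63432, 60537 and 60475 bp away, and the start of its neighbour LINC01248, 896 bp from that of SOX11, was likewise not covered.

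In group D, SOX13 was marked and its relatives SOX5 and SOX6 were not. The SOX13 peak (gene at chr1:204073115-204127743, plus strand) was 2453, 2332 and 2336 bp wide with 5.54-, 4.55- and 3.42-fold enrichment, which ranked at percentiles 20.6, 16.5 and 7.75. It began 71, 41 and 15 bp before the start site, so that nearly all of it lay over the start of the transcribed region. A noncoding gene, ENSG00000286572, starts 850 bp away. SOX5 (chr12:23529504-24562544, minus strand) and SOX6 (chr11:15966449-16739591, minus strand) are long genes of 1033 and 773 kb. The peak nearest to the canonical start of SOX5 was 769273, 769195 and 769312 bp away, and that nearest to SOX6 201099, 200926 and 201016 bp away. GENCODE lists 20 start sites for SOX5, none of them within 1 kb of a peak in any large list.

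SOX6 differed from SOX5 at its alternative starts. Of its 17 annotated start sites, 3 lay within 1 kb of a peak in all 3 large lists, and none of these belongs to the basic GENCODE set. The farthest upstream, at 382 and 383 kb before the canonical start, fell within 1 kb of a peak with 8.72-, 9.20- and 8.46-fold enrichment (chr11:16737942-16739473 in MDA-MB-231 replicate 2). The same peak covers the start of C11orf58, which is transcribed in the opposite direction, and the lists cannot assign it to either gene. The third, 251 kb upstream of the canonical start, met a weak peak of 2.93-, 2.87- and 2.90-fold enrichment. SOX13 also has a further start, 5.01 kb downstream of the canonical one, inside a peak of 10.7-, 12.2- and 10.3-fold enrichment, higher in each list than the peak at its canonical start. C11orf58 and these alternative starts were singled out after the values were seen.

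In group E, SOX9 was marked and SOX8 and SOX10 were not. The SOX9 peak (gene at chr17:72121020-72126416, plus strand) was 3617, 3619 and 3420 bp wide with 8.01-, 7.78- and 6.89-fold enrichment, at percentiles 41.3, 47.3 and 50.4. Together with SOX12 it was the highest of the 10 promoter peaks, and their order differed between lists: SOX12 was the higher in MDA-MB-231 replicate 2, and SOX9 in both Hs578T lists. It reached from 2043 bp before to 1573 bp after the start in MDA-MB-231 replicate 2 and also covers the start of the antisense transcript SOX9-AS1, 215 bp away. For SOX8 (chr16:981770-986979, plus strand), the nearest peak was 43575 bp away in the small list and 10804, 10783 and 10785 bp away in the large lists, and the start of CEROX1, 174 bp from that of SOX8, was not covered either. SOX10 (chr22:37970686-37987422, minus strand), the neural crest factor, had its nearest peaks 14812, 14723 and 14668 bp away, and none of its 9 annotated start sites was marked.

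Among these 10 genes, distal coverage in the large lists was lowest at SOX11, SOX5 and SOX8, all without a promoter peak. SOX6 and SOX10, also unmarked, were not set apart from the genes with a promoter peak in any large list. In Hs578T their means of 17.9 and 10.2 kb exceeded the 9.72 kb of SOX2. The distal bases covered by peaks in the gene body and 200 kb on either side had a median over the 10 genes of 0, 10.8, 10.9 and 9.68 kb in the 4 lists, beside medians of 0, 7.08, 8.16 and 7.49 kb over all protein-coding genes. By line the median was 5415 ± 7658 bp (SD, n = 2) in MDA-MB-231 and 10314 ± 896 bp in Hs578T, and the difference was again below the SD of MDA-MB-231. Without MDA-MB-231 replicate 1 the order turned here too, with 10830 bp against 10314 bp. In each large list 7 of the 10 genes lay above the median of all genes, and 6 of 10 when coverage was taken as a percentage of the window, which is longer for long genes. All 5 genes marked in any large list were above the median in each large list, SOX2 also in Hs578T replicate 2, where it was unmarked. SOX11, SOX5 and SOX8, all unmarked, were below it. How many of all marked or unmarked protein-coding genes lie above the median was not computed. With 10 genes, nothing particular to the SOX genes can be read from this. Unmarked SOX10 and SOX6 lay above it in bases, but SOX6 not as a percentage of its window. The bar plot of distal coverage gives all values.

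**Figure D2:**
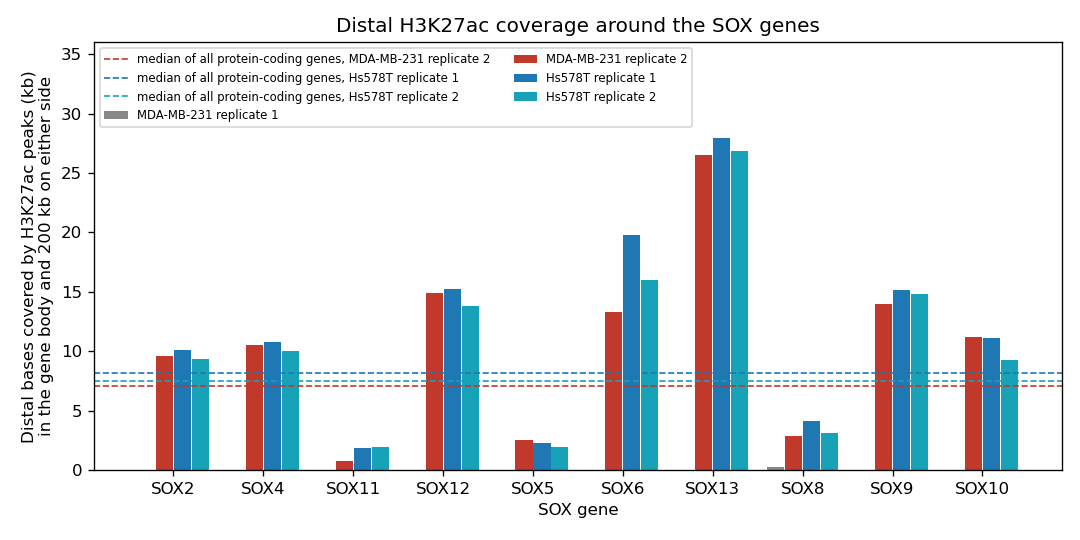
Distal bases covered by H3K27ac peaks (kb, vertical axis) in the gene body and 200 kb on either side of each SOX gene, with a bar for each list. Dashed lines are the medians of all protein-coding genes in each large list; SOX13 stands highest at 26.5 to 28.0 kb, and SOX11, SOX5 and SOX8 lie below the medians in each large list.

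Distal coverage of SOX13 was 26.5, 28.0 and 26.8 kb in the large lists, at percentiles 92.7, 91.7 and 92.2 of all genes. In Hs578T the mean was 27.4 ± 0.805 kb (SD, n = 2), far above the next gene. SOX6 followed there with 17.9 ± 2.67 kb, then SOX9 with 15.0 ± 0.245 kb and SOX12 with 14.5 ± 1.03 kb. The values of SOX9 and SOX12 overlapped between lists, and in MDA-MB-231 replicate 2 the order was different, with 14.9 kb for SOX12, 14.0 kb for SOX9 and 13.3 kb for SOX6. SOX4 at 10.4 ± 0.518 kb, SOX10 at 10.2 ± 1.30 kb and SOX2 at 9.72 ± 0.525 kb lay close together. Within each large list SOX4 was above SOX2, with 10.5 against 9.59, 10.7 against 10.1 and 10.0 against 9.35 kb. SOX10 was above both in MDA-MB-231 replicate 2 and Hs578T replicate 1 and below both in Hs578T replicate 2. SOX8 at 3.60 ± 0.695 kb, SOX5 at 2.11 ± 0.211 kb and SOX11 at 1.90 ± 0.0226 kb were lowest. The coverage of SOX5 and SOX11 did not overlap in Hs578T, although the lowest SOX5 value, 1.96 kb, was close to the highest SOX11 value, 1.92 kb. In MDA-MB-231 replicate 2 these 3 genes had 2.87, 2.51 and 0.748 kb.

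How much of this coverage lay nearest to the SOX gene itself varied. At SOX2, SOX4 and SOX9 no other protein-coding gene starts within the window, and every distal peak had the SOX gene as its nearest protein-coding start site, with 9.59, 10.5 and 14.0 kb in MDA-MB-231 replicate 2. At SOX12, where 11 other protein-coding genes start within the window, 0 of the distal peaks were nearest to SOX12 in any list. At SOX10, with 12 other genes, 0.627, 0.694 and 0.632 kb of the 11.2, 11.1 and 9.31 kb were nearest to it. SOX13 kept 9.67, 10.8 and 8.95 kb on that count, and SOX6 2.59, 3.34 and 2.33 kb. SOX8 kept 0 kb in the large lists. Distance does not show which gene a peak acts on, and no contact data were used.

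**Figure D3:**
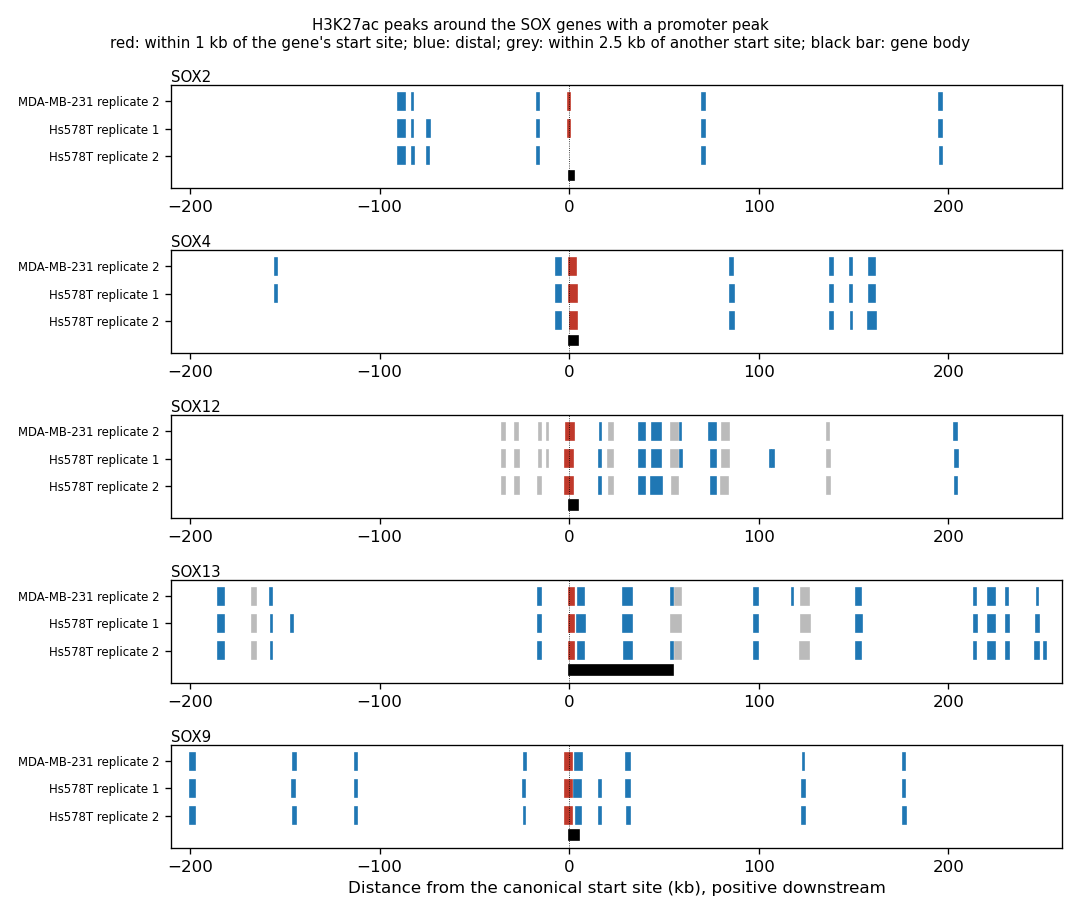
H3K27ac peaks in the 3 large lists around the 5 SOX genes with a promoter peak, by distance from the canonical start site (kb, positive downstream), with peaks at the gene's own start in red, distal peaks in blue, peaks near other start sites in grey and the gene body in black. Narrow peaks are widened to be visible, so covered length cannot be read from the map; SOX2, SOX4 and SOX9 have no grey peaks, and the SOX2 promoter peak is missing in Hs578T replicate 2.

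SOX2 had 5, 6 and 6 distal peaks in the large lists. The strongest region lay 88.4 kb upstream in SOX2-OT (chr3:181621541-181625558), with 9.12-, 9.69- and 9.43-fold enrichment. Others in SOX2-OT lay 16.4 kb upstream (8.63-, 9.54- and 7.04-fold) and 70.7 kb downstream (7.70-, 6.43- and 7.07-fold). All 3 regions were present in Hs578T replicate 2, where the promoter peak was not called, and each was higher in fold enrichment than the SOX2 promoter peak wherever that peak was called. A region 74.4 kb upstream was called in both Hs578T lists and not in MDA-MB-231 replicate 2, at 2.90- and 3.22-fold.

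Near SOX4 the strongest region lay 5.68 kb upstream (chr6:21586646-21589506), with 14.5-, 15.9- and 10.2-fold enrichment against 5.21-, 4.48- and 4.10-fold at the promoter. It was rich in CG dinucleotides, with 167 in the 2571 bp shared by the lists, and held 0 AP-1 matches and 1 SOX match. A further 4 regions lay in introns of the noncoding gene CASC15, 85.9, 138, 149 and 160 kb downstream, all called in all 3 lists, with the highest values at 85.9 kb (7.46-, 6.81- and 7.40-fold). The start site of CASC15 itself was not marked in any list.

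SOX12 had its strongest distal region 46.1 kb downstream (chr20:368803-374406), with 16.1-, 15.5- and 11.9-fold enrichment. It lay within the annotated span of TRIB3 but outside its canonical exons, 6354 bp from the canonical TRIB3 start site. Its shared stretch of 4818 bp held 6 AP-1 and 3 SOX matches. The nearest protein-coding start site was that of TRIB3, a stress-response pseudokinase, as it was for a region 38.4 kb downstream. The distal peaks around SOX12 all lay downstream of it.

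SOX13 had 13, 12 and 13 distal peaks. The strongest, 30.6 kb into the gene (chr1:204101257-204106175), reached 19.5-, 23.6- and 17.7-fold enrichment, the highest of any distal peak near the 10 genes in each large list, against 5.54-, 4.55- and 3.42-fold at the canonical promoter. Its shared stretch of 4030 bp held 2 AP-1 and 6 SOX matches. The region 6.26 kb into the gene, which holds the alternative start, reached 10.7-, 12.2- and 10.3-fold, and another 15.5 kb upstream 8.20-, 8.36- and 6.93-fold. These 3 were the distal regions nearest to SOX13, and the rest lay nearer to other genes, among them a region 184 kb upstream with 14.0-, 13.9- and 11.7-fold enrichment and the nearest start at SNRPE.

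Around SOX9, which stands alone in its window, 8, 9 and 9 distal peaks were called. The strongest lay 199 kb upstream between genes (chr17:71921059-71923861), with 9.46-, 10.1- and 9.51-fold enrichment, just above the 8.01-, 7.78- and 6.89-fold at the promoter. Its 2230 bp shared stretch held 2 AP-1 matches and 1 SOX match. Regions 145 kb upstream (6.64-, 6.71- and 5.67-fold), 112 kb upstream (5.58-, 6.08- and 5.06-fold) and 31.1 kb downstream (7.26-, 8.47- and 7.19-fold) were likewise called in all 3 lists. A region centred 4.60 kb after the start, over the last part of SOX9, had 6.35-, 4.51- and 4.78-fold enrichment. Of the 9 regions 8 were called in all 3 lists, the highest share among the genes with more than 2 regions.

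**Figure D4:**
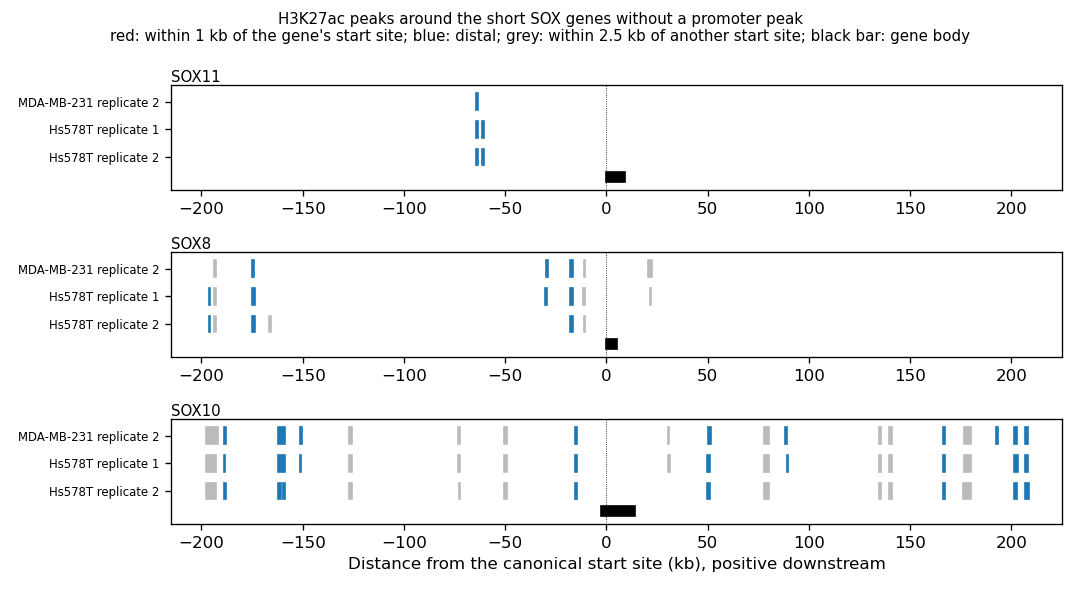
H3K27ac peaks in the 3 large lists around SOX11, SOX8 and SOX10, which had no promoter peak, by distance from the canonical start site (kb, positive downstream), with distal peaks in blue, peaks near other start sites in grey and the gene body in black. Narrow peaks are widened to be visible; SOX11 has 1 or 2 peaks in the whole window, and SOX10 has many of both colours but none at its start.

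Among the unmarked genes, SOX11 had 1, 2 and 2 distal peaks, in the noncoding gene LINC01248. The region in all 3 lists lay 63.8 kb upstream, at 5.43-, 5.20- and 5.49-fold, and the other, 61.1 kb upstream, was called in both Hs578T lists at 3.35- and 3.85-fold. SOX8 had 3, 4 and 3, the strongest 174 kb upstream and nearest to GNG13 (14.6-, 10.9- and 8.50-fold), and a region 17.3 kb upstream in LMF1 (6.74-, 5.67- and 4.79-fold). SOX10 had 10, 9 and 8, of which a single region was nearest to it, 15.1 kb upstream in an intron of POLR2F, at 5.74-, 3.66- and 2.75-fold. The regions of these unmarked genes were singled out after their values were seen.

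SOX5 had 2 distal peaks per large list, both upstream of the gene, at 770 and 806 kb from the canonical start, and nearest to BCAT1. Its gene body of 1033 kb held 0 peaks of any kind in any list. SOX6 contrasted with it, with 6, 4 and 5 peaks in its body of 773 kb. Apart from the peak shared with C11orf58, the regions in the body were weak. In its introns, a region 202 kb after the canonical start had 3.88-, 4.39- and 4.66-fold enrichment, and 355 kb after it another had 3.46-, 3.77- and 3.67-fold. The higher values in the SOX6 window lay upstream of the gene in PLEKHA7, 434 kb from the canonical start (8.81-, 7.55- and 8.78-fold) and 535 kb from it (5.11-, 6.34- and 7.25-fold). As a percentage of its long window, SOX6 coverage was 1.13, 1.68 and 1.36%, at percentiles 39.9, 47.8 and 43.6 of all genes, below the median, although in bases it was at 71.9, 81.6 and 77.4.

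**Figure D5:**
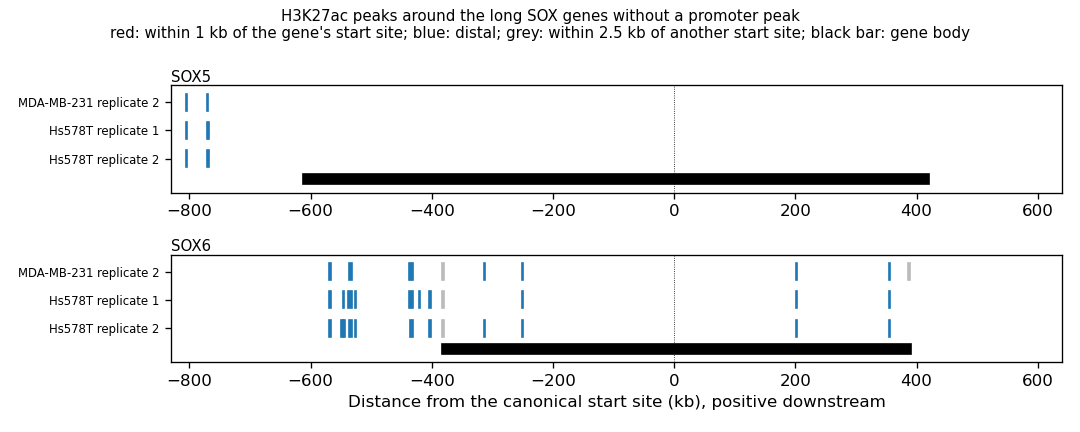
H3K27ac peaks in the 3 large lists around the long genes SOX5 and SOX6, by distance from the canonical start site (kb, positive downstream), with distal peaks in blue, peaks near other start sites in grey and the gene body in black. Narrow peaks are widened to be visible; the SOX5 body is empty, and the grey peak at the upstream end of SOX6 covers the start of C11orf58.

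In MDA-MB-231 replicate 1, 2 peaks lay in any of the windows, both around SOX8. The peak at chr16:846898-847119 had 5.61-fold enrichment and lay within 1946 bp of another start site, and that at chr16:1025345-1025628, 284 bp wide with 5.28-fold enrichment, was the only distal peak of this list near a SOX gene. Neither overlapped a peak of the large lists. The other 9 genes had no peak in their windows in this list, which held few peaks anywhere.

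The strongest distal peak was higher in fold enrichment than the promoter peak in 5 of 5, 5 of 5 and 4 of 4 marked SOX genes in the large lists, beside 60.6, 65.3 and 67.9% of all marked protein-coding genes. The order is a ranking within a list, and the windows reach into neighbouring genes. At SOX9 in MDA-MB-231 replicate 2 it rested on the region 199 kb upstream, at the end of the window, since the next strongest, 31.1 kb downstream, had 7.26-fold enrichment against 8.01-fold at the promoter. In both Hs578T lists the region 31.1 kb downstream was itself above the promoter, with 8.47- against 7.78-fold and 7.19- against 6.89-fold. At SOX2, SOX4, SOX9 and SOX13 the strongest distal region also had the SOX gene as its nearest protein-coding start, and at SOX12 it was nearest to TRIB3.

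The distal peaks near the SOX genes overlapped between lists about as often as distal peaks elsewhere. Of the 65 near SOX genes in Hs578T replicate 2, 62 or 95.4% (95% Wilson interval 87.3 to 98.4%) were also covered in Hs578T replicate 1, beside 91.3% of all distal peaks. Of the 62 in MDA-MB-231 replicate 2, 58 or 93.5% (84.6 to 97.5%) overlapped Hs578T replicate 1, beside 92.7%, and 55 or 88.7% (78.5 to 94.4%) overlapped Hs578T replicate 2, beside 89.6%. Seen from Hs578T replicate 1, 86.8% of its 68 peaks overlapped the other Hs578T list, beside 86.6% of all its distal peaks. With the list of MDA-MB-231 replicate 2 the share was 82.4%, beside 82.7%. The single distal peak of MDA-MB-231 replicate 1 overlapped none. The intervals cover counting error only. The intervals of the shares between the lines and within Hs578T overlapped. A single distal peak near the SOX genes cannot show whether the small list resembles the large ones. Of all 166 distal peaks of that list, 24.1% overlapped MDA-MB-231 replicate 2, 24.1% Hs578T replicate 1 and 22.3% Hs578T replicate 2.

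Merged over the large lists, the distal peaks made 75 regions, of which 52 or 69.3% were called in all 3 lists, beside 67.5% of the 35501 distal regions of the genome. A further 13 were called in 2 lists and 10 in 1, of which 3 in MDA-MB-231 replicate 2, 5 in Hs578T replicate 1 and 2 in Hs578T replicate 2. The highest fold enrichment of a region missing from a list was 4.84, for a region near SOX6 in Hs578T replicate 2. The median over all peaks of that list was 4.85. Introns held 49 of the regions, intergenic sequence 18 and exons 8. Upstream of their SOX gene lay 34, downstream 33 and in the gene body 8, and in 29 of the 75 the SOX gene had the nearest protein-coding start.

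The sequence motifs of these peaks were set beside those of all distal peaks. SOX matches were more frequent near SOX genes in each large list, over whole peaks and in the central 300 bp. For AP-1 matches this held over whole peaks only. The differences were not tested. An AP-1 match, TGANTCA, was found in 66.1, 64.7 and 67.7% of distal peaks near SOX genes in the large lists, beside 63.9, 63.1 and 62.3% of all distal peaks. A match to ACAAAG or ACAATG on either strand was found in 77.4, 80.9 and 81.5%, beside 76.2, 76.4 and 75.7%. Long peaks hold more letters, and the peaks near SOX genes were the longer. Their median widths were 1402.5, 1430 and 1315 bp, beside 1220, 1237 and 1199 bp for all distal peaks. The shares over whole peaks were thus not compared at equal length. In the central 300 bp the AP-1 shares were 32.3, 25 and 30.8% beside 31.8, 30.4 and 30.0%. The SOX shares there were 45.2, 41.2 and 38.5% beside 35.7, 35.8 and 35.5%, with 28 of 62, 28 of 68 and 25 of 65 peaks. The peaks of the lists are largely the same regions, so these are not 3 independent counts, and a match is no evidence that a SOX factor bound there.

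Other SOX genes and genes known as targets or partners of SOX factors were examined at their promoters, again beside the 56.4 to 58.2% of all genes. Of 9 other SOX genes only SOX15 was marked, in each large list, with 10.4-, 8.19- and 7.15-fold enrichment and a width of 5250, 6014 and 5785 bp. Of 6 cartilage genes that SOX9 activates with SOX5 and SOX6, 1 was marked, HAPLN1, which encodes a link protein of cartilage matrix, and COL2A1 and ACAN were not. Of 5 neural crest and glial targets of SOX10, ERBB3 and MITF were marked. Of 4 pluripotency genes that act beside SOX2, 1 was marked, KLF4, and POU5F1 and NANOG were not. Of 3 neural targets of SOX4 and SOX11, TUBB3 and TEAD2 were marked and DCX was not. In all of these the large lists did not differ in which genes were marked, and MDA-MB-231 replicate 1 had 0 marked genes.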

How the data were processed

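H3K27ac ChIP-seq peak lists of 4 libraries, 2 each of MDA-MB-231 and Hs578T after TWEAK and its washout, were analysed. Groups and replicate numbers came from the sample titles. Per the study's methods and the submitters' processing notes, the authors trimmed reads with Trimmomatic, mapped them to hg38 with Bowtie2, called peaks per library with MACS2 against input, and removed blacklisted regions. deepTools is also named in the notes. Versions and MACS2 settings are not given in the sources used here. The deposited lists have 9 columns and hold, for each peak, a score, a fold enrichment (a ratio over local background), and −log10 p-values and −log10 q-values made by the authors. The largest q-value kept was 0.0994. Peaks were called separately in each library, so weak regions can pass in some lists and miss in others, and since read numbers were not used here the depth is unknown.

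Gene positions came from GENCODE release 44, whose assembly matched the lists' chromosome names and lengths, and start sites were those of Ensembl canonical transcripts. A gene was marked if a peak overlapped the 1 kb on either side of its start site. Peaks over 2.5 kb from every canonical start site were distal, and their bases were summed over the gene body and 200 kb on either side. Peaks overlapping by 1 bp or more were counted as shared. A region was called intronic if its midpoint lay within a gene's annotated span but outside the exons of canonical transcripts. Percentiles rank a value within its list among all marked genes or, for coverage, all protein-coding genes. Intervals are 95% Wilson intervals. Python 3.11.15, numpy 2.4.6, pandas 2.3.3 and scipy 1.17.1 were used, and the interval functions were tested on simulated data.

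The genes and the comparison lists were chosen with earlier results of these data known. All 10 genes were described in every list. Singly described by rule were, per marked gene, the distal region with the highest mean fold enrichment among those called in all 3 large lists, genes starting within 1 kb of a SOX start site, and other SOX or listed noncoding genes with a promoter peak. Further regions, alternative starts and host genes were chosen after their values were seen. Alternatives were other promoter windows, start sites, flanks, distal distances, merging, peak thresholds and overlap, and leaving out each library. The start sites of all GENCODE transcripts, basic or not, were added after seeing the data.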

Additional observations from a re-analysis of the deposited data

How the results depend on the processing

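No paired analysis was possible because the results come from no test. Of 66 recomputed values of the line-level results, 55 stayed within the spread between replicates and 11 moved, but the spread of MDA-MB-231 was too large for this to show stability. When lists were limited to the upper 50% of peaks by score, the marked SOX genes fell to a mean of 1 in MDA-MB-231 and 2 in Hs578T, and the median distal coverage in Hs578T was 7836 bp. That median was 2400 bp with a flank of 50 kb, 5479 bp with 100 kb, and 2367 bp with only the peaks nearest to the SOX gene. Requiring an overlap of 50% of both peaks gave 83.1% for Hs578T replicate 2 against replicate 1 and 80.6% for MDA-MB-231 replicate 2 against Hs578T replicate 1. Leaving out a library, the marked genes ranged from 0 to 5 in MDA-MB-231 (5 without replicate 1, 0 without replicate 2, so that without replicate 1 the order of the lines turned) and from 4 to 5 in Hs578T. Genes marked in both Hs578T lists and no MDA-MB-231 list ranged from 0 to 4. The 4, without MDA-MB-231 replicate 2, was fixed by the list of 209 peaks that then stood alone for that line. Median MDA-MB-231 coverage ranged from 0 to 10830 bp, the latter, without replicate 1, above the 10314 bp of Hs578T. With the start sites of all GENCODE transcripts, added after seeing the data, SOX6 was counted too, giving means of 3 and 5.5. Of 180 recomputed values of coverage at single genes 38 moved, all in Hs578T, where the 2 lists differ little.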
